A study of Mus musculus with 27 samples.

Results

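Hmmr, the hyaluronan-mediated motility receptor, was examined together with 8 further genes that receive, make or cut hyaluronan, in the maternal mouse liver before and during pregnancy. The 9 genes were chosen by symbol from the 21823 genes of the expression table, as the hyaluronan receptors Hmmr, Cd44, Lyve1 and Stab2, the hyaluronan synthases Has1, Has2 and Has3, and the hyaluronidases Hyal1 and Hyal2. All 9 were listed, and 7 passed a filter on low values (3 or more libraries at or over 1 FPKM), while Has1 and Has3 did not. FPKM is the number of sequenced fragments per kilobase of transcript, scaled to the mapped fragments of the library, so it can be compared between genes. The study asked which genes change in each zone of the liver lobule as pregnancy proceeds. It collected zone 1 around the portal vein (PV), zone 2 between (PA) and zone 3 around the central vein (CV) by laser capture microdissection of frozen liver sections, and sequenced the RNA. The mice were female, of the C57BL/6 strain in the labels (C57BL/6N in the study's methods) and wild-type (WT), and were non-pregnant (NP) or pregnant, collected 8 or 16 days post coitum (dpc8 and dpc16). Each of the 9 combinations of stage and zone had 3 libraries, 27 in all. The labels give no ages and do not say which zones came from the same mouse, so the p-values here measure the spread between these libraries, and libraries of different zones may share a mouse. The study picked Hmmr for follow-up on these same libraries, so its values are not independent evidence of its pattern.

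Hyaluronan is a long, unbranched sugar polymer of the extracellular matrix. As background, synthases in the plasma membrane make it from UDP-glucuronic acid and UDP-N-acetylglucosamine, hyaluronidases cut it, and in the liver it is cleared from the blood by endothelial cells of the sinusoids. Cd44 is its main receptor on the surface of many cells, and Hmmr, also called RHAMM, both binds hyaluronan and associates with the spindle in dividing cells.

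The 27 libraries corresponded to an estimated 7.53 to 33.33 M mapped reads (median 16.44). The summed FPKM of 7 periportal markers was between 2506 and 5331 in zone 1 and between 129 and 1628 in zone 3, and that of 7 pericentral markers was between 242 and 464 in zone 1 and between 6788 and 18259 in zone 3, so the zone labels matched their markers at every stage. In 6 libraries labelled as female, the summed FPKM of the Y-linked genes Ddx3y, Eif2s3y, Kdm5d and Uty was 7.92 to 23.2, against 0 to 2.97 in the other 21. These 6 were replicate 1 of NP zone 1, replicate 2 of NP zone 3, replicate 1 of dpc8 zone 1, replicate 2 of dpc8 zone 2, and replicate 3 of dpc16 zones 2 and 3. They also had the highest summed FPKM of 10 connective tissue and smooth muscle markers, 905 to 4801 (median 3001) against 14.1 to 563 (median 50.0), led by Tagln, Acta2 and Col1a1, and every one of the 10 was also detected in some of the other 21. Their sum of 22 mitosis genes was 115 to 338 FPKM (median 141), against 7.32 to 176 (median 28.9). The median sums of other lists also differed, with ranges that overlapped: 4.70 against 0.214 FPKM for mesothelium, 65.4 against 11.7 for biliary epithelium, 125 against 212 for sinusoidal endothelium, 117 against 186 for Kupffer cells, 8.92 against 15.1 for leukocytes, 7.53 against 14.6 for erythroid cells, 245 against 286 for stellate cells, 59.3 against 49.8 for lymphatic endothelium, and 36023 against 65114 for hepatocytes. The lymphatic sum was led by Prox1 (mean 37.3 FPKM), while Ccl21a was at 0 in 22 of 27 libraries and Mmrn1 had a mean of 0.128 FPKM. It therefore says little about lymphatic cells. The 6 libraries, with a sum over 5 FPKM, are called the Y-linked libraries here, and the main differences are also given without them. Some of the other 21 also held Y-linked FPKM (up to 2.97), so leaving out the 6 does not remove all of it.

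Hmmr (ENSMUSG00000020330.16) lies on the minus strand of chromosome 11 at chr11:40701395-40733422 (GRCm38, the build named mm10 in the processing notes), with 1 protein-coding transcript of 3892 bases in 18 exons and no overlapping gene in the annotation. Its promoter is shown because Hmmr moved together with genes of cell division, whose promoters as background often hold CCAAT boxes and the element TTTGAA. RefSeq promoter windows, from 250 bases before to 50 after the start, were matched for 6 of the 9 genes (Has2, Has3 and Lyve1 were not matched). The sequences run 5′ to 3′ on the strand of the gene from 200 bases before to 20 after the RefSeq start (GRCm38.p6), at chr11:40733418-40733637 (minus) for Hmmr, and then for the 3 genes whose levels were most like those of Hmmr (below): Ckap2l at chr2:129297193-129297412 (minus), Kif11 at chr19:37376182-37376401 (plus) and Mki67 at chr7:135716360-135716579 (minus). Capitals mark each CCAAT or its complement ATTGG, and each TTTGAA or its complement TTCAAA, searched on both strands. The 2 motifs do not overlap each other in these 4 stretches.
Hmmr: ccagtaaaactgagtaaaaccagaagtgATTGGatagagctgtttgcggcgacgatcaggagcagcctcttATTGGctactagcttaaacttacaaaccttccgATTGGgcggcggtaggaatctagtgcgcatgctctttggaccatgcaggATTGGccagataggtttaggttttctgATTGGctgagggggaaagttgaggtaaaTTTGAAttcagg
Ckap2l: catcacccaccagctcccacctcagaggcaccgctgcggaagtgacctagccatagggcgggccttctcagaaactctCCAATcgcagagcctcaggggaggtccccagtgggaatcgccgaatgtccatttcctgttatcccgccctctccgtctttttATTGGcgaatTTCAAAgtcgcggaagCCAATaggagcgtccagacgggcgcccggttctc
Kif11: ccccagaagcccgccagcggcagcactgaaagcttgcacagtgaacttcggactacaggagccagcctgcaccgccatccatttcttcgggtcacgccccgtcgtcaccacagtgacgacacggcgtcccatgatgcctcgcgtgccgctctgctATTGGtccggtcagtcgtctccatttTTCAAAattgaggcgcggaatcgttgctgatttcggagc
Mki67: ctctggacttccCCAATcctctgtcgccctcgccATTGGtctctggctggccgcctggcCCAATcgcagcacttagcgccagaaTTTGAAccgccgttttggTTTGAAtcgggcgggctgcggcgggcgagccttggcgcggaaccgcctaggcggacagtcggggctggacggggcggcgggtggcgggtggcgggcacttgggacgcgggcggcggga
The full Hmmr window held 5 CCAAT boxes, all as ATTGG, at 172, 129, 96, 47 and 20 bases before the start, and 1 TTTGAA beginning at base 9 from the RefSeq start. The annotated transcript described above starts at base 16 in this numbering, so this TTTGAA lies before it. Of 32851 promoter windows of the same length, 37.4% held CCAAT at least once, 1.06% held 4 or more, 17.9% held TTTGAA and 6.95% held both. Of the 19 windows found for 18 of 22 mitosis genes, 13 held both. Among the other 5 matched members, Has1 held 1 of each motif, Hyal1 held 1 CCAAT, and none was found in the windows of Cd44, Hyal2 and Stab2. These matches describe letters in the windows and are not evidence of binding.

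Hmmr was highest in zone 1 at dpc8, where its level in FPKM was 7.81, 3.26 and 5.86 in the 3 libraries. At dpc8 it was 2.69, 3.91 and 2.26 FPKM in zone 2 and 2.03, 0.491 and 0.121 FPKM in zone 3. The group means thus stood in the order of zone 1, zone 2 and zone 3, and all 3 zone 1 libraries lay above all 3 zone 3 libraries. In NP liver, Hmmr was 1.21, 0.837 and 0.409 FPKM in zone 1, then 0.50, 0.785 and 0 FPKM in zone 2, and 0.235, 1.52 and 0.202 FPKM in zone 3. At dpc16 it was 0, 0.0719 and 0.486 FPKM in zone 1, then 0.115, 0.351 and 2.48 FPKM in zone 2, and 0.855, 0.326 and 3.84 FPKM in zone 3. The highest library of NP zones 1 and 3, of dpc8 zones 1 and 2, and of dpc16 zones 2 and 3 was in each case the Y-linked library. From the estimated depth and the transcript length, the dpc8 zone 1 values rest on about 677, 134 and 497 reads, the dpc8 zone 3 values on about 125, 32 and 6.0 reads, and the dpc16 zone 1 values on 0, about 2.0 and about 21 reads. In bulk samples such as these, fewer cells of a type and less RNA per cell cannot be told apart.

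**Figure D1:**
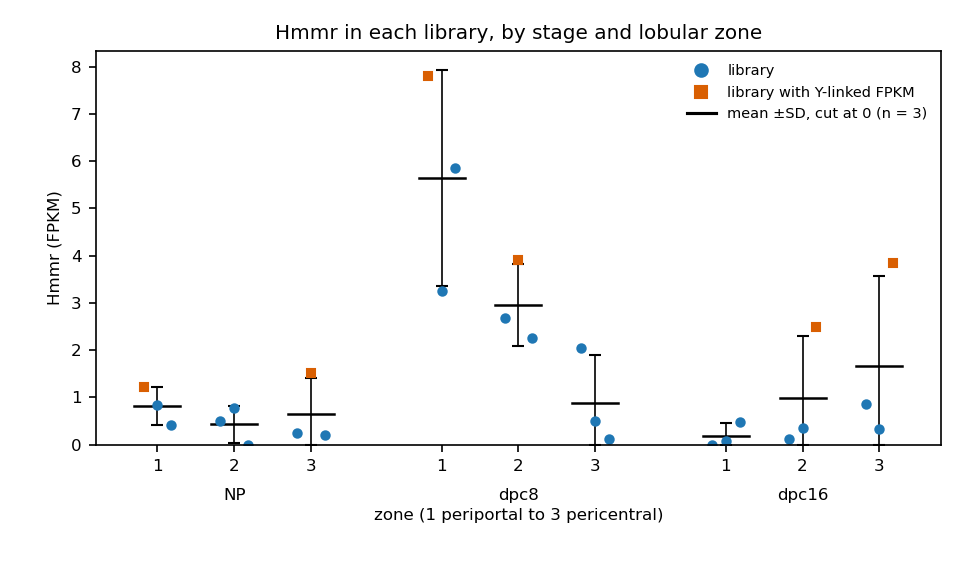
Hmmr level (FPKM, linear axis from 0) in each of the 27 libraries by stage and zone. Circles and squares are libraries, squares being the 6 Y-linked libraries, and lines are the mean with bars of 1 SD (n = 3) cut at 0. The 3 libraries of dpc8 zone 1, between 3.26 and 7.81, lie above all libraries of every NP group and of dpc16 zone 1.

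Ordered by mean level, the groups were dpc8 zone 1 (5.64 ± 2.28 FPKM, SD, n = 3), dpc8 zone 2 (2.95 ± 0.858), dpc16 zone 3 (1.67 ± 1.89), dpc16 zone 2 (0.983 ± 1.31), dpc8 zone 3 (0.882 ± 1.02), NP zone 1 (0.818 ± 0.400), NP zone 3 (0.651 ± 0.75), NP zone 2 (0.428 ± 0.397) and dpc16 zone 1 (0.186 ± 0.262). The libraries of each group overlapped those of the next group in this order, so no neighbours were separated beyond their spread.

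At dpc8 Hmmr was higher in zone 1 than in zone 3, by 1.89 on the log2(FPKM + 1) scale (95% interval 0.88 to 2.90, limma adjusted p = 0.0496). It was the only one of the 7 tested members past the threshold of 0.05 in this comparison, in which 1.61% of all 12952 tested genes passed it. A gap of this kind, with every zone 1 value above every zone 3 value, was seen in 12.8% of tested genes. The difference was 1.65 (limma adjusted p = 0.0257) without the Y-linked libraries. Leaving out any library of either group other than replicate 1 of dpc8 zone 3 took Hmmr over the threshold, with limma adjusted p between 0.0523 and 0.280, while the difference stayed between 1.58 and 2.30 over the 6 such fits. The threshold was also missed with a pseudocount of 0.1 (3.05, adjusted p = 0.204), no filter on low values (adjusted p = 0.0642), only the groups compared (0.0968) and the replicate number as a block (0.0693). The block nested in stage gave 0.0057 with limma. The call thus sits at the threshold and held in 4 of 8 other settings, and the difference was positive in all 8. The same difference between zones was 0.20 (interval -0.80 to 1.21) in NP liver and -0.97 (interval -1.97 to 0.04) at dpc16, and neither passed (limma adjusted p = 0.992 and 0.684). Without the Y-linked libraries these were 0.40 and -0.43, and with single libraries left out they ranged from 0.02 to 0.55 and from -1.36 to -0.43, the last without replicate 3 of dpc16 zone 3. With a pseudocount of 0.1 they were 0.64 and -2.44, and neither passed (limma adjusted p = 0.988 and 0.477). No other member passed in these comparisons either, where 1.34% and 1.55% of tested genes did. Zone 2 differed from zones 1 and 3 over the mean of stages by 0.02 (interval -0.48 to 0.52), where 0.255% of tested genes and no member passed with limma.

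Against NP liver, no member passed at dpc8 in any zone, where 0.0309% (zone 1), 0.00772% (zone 2) and 0.0154% (zone 3) of tested genes did with limma. At an unadjusted p under 0.05, Hmmr passed in zones 1 and 2, where 1.96% and 1.98% of tested genes were higher at that level, Stab2 was lower in zone 2, as were 3.09% of tested genes, and no member passed in zone 3. Hmmr was the member with the largest difference in zones 1 and 2. In zone 1 the difference was 1.83 (interval 0.82 to 2.84, limma adjusted p = 0.656) and the NP libraries, 0.409 to 1.21 FPKM, did not overlap the dpc8 libraries, 3.26 to 7.81 FPKM. Such a gap in the same direction was seen in 3.6% of tested genes. In zone 2 the difference was 1.49 (interval 0.48 to 2.50, limma adjusted p = 0.904), again with no overlap, as in 4.29% of tested genes in that direction. These differences without the Y-linked libraries were 1.75 and 1.32 (limma adjusted p = 0.200 and 0.526), and with a pseudocount of 0.1 they were 2.66 and 2.99 (limma adjusted p = 1.0 and 0.942). In zone 3 it was 0.15 (interval -0.86 to 1.15) and the libraries overlapped. The change from NP to dpc8 was 1.68 larger in zone 1 than in zone 3 (interval 0.26 to 3.11), but this did not pass over all genes (limma adjusted p = 1.0), and 0.0% of tested genes did. The same comparison of the change from NP to dpc16 gave -1.17 (interval -2.60 to 0.25, limma adjusted p = 0.993), where 0.054% of tested genes and no member passed. Over the mean of zones the dpc8 difference from NP was 1.16 (interval 0.50 to 1.81, limma adjusted p = 0.603), where 0.0309% of tested genes passed, and 1.97 with a pseudocount of 0.1.

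From dpc8 to dpc16 Hmmr fell in zone 1, by 2.45 on the log2(FPKM + 1) scale (interval 1.44 to 3.45 lower, limma adjusted p = 0.00924), with every dpc16 library at or under 0.486 FPKM. It was again the only member called, where 2.01% of tested genes were called, and the groups did not overlap, as in 10.1% of tested genes in that direction. Without the Y-linked libraries it fell by 2.21 (limma adjusted p = 0.00249), and with a pseudocount of 0.1 by 4.65 (limma adjusted p = 0.0235). Leaving out replicate 1 of dpc8 zone 1 gave an adjusted p of 0.0502 and leaving out replicate 1 of dpc16 zone 1 one of 0.0531 (both limma), so these 2 libraries each decide the call, while the difference stayed between -2.74 and -2.21 with any 1 library left out. In zone 2 the difference was -1.16 (interval -2.17 to -0.16, limma adjusted p = 0.309) and in zone 3 it was 0.41 (interval -0.60 to 1.42, limma adjusted p = 0.806), where 1.51% and 1.37% of tested genes passed and no member did. Without the Y-linked libraries these were -1.50 (limma adjusted p = 0.0557) and -0.13 (limma adjusted p = 0.923), so the zone 3 difference turned its sign, and with a pseudocount of 0.1 they were -2.24 and 0.84. Over the mean of zones Hmmr fell by 1.07 (limma adjusted p = 0.0445), 1 of 7 members where 6.18% of tested genes passed, and by 1.26 (limma adjusted p = 0.00524) without the Y-linked libraries. The call with all libraries (limma adjusted p = 0.0445) was lost when any 1 of 14 of the 18 libraries was left out. The limma adjusted p then reached up to 0.0846, with the difference between -1.22 and -0.94 over the 18 fits. It was also lost with a pseudocount of 0.1 (-2.02, limma adjusted p = 0.0812). The dpc8 zone 1 libraries enter all 3 calls of Hmmr described above, so these are not independent of each other.

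Between dpc16 and NP, Hmmr differed by -0.61 in zone 1 (interval -1.62 to 0.39), 0.32 in zone 2 (interval -0.68 to 1.33) and 0.56 in zone 3 (interval -0.45 to 1.56). None passed with limma (adjusted p of 0.716 to 0.791), where 1.37%, 2.66% and 1.32% of tested genes passed and no member did, and without the Y-linked libraries the values were -0.46, -0.18 and 0.36. With a pseudocount of 0.1 they were -1.98, 0.75 and 1.10, and again did not pass. Leaving out replicate 3 of dpc16 zone 3 alone took the zone 3 value to 0.02.

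The 10 other tested genes whose log2(FPKM + 1) was most like that of Hmmr over the 27 libraries (Pearson r as the measure of likeness, a description) were Ckap2l (r = 0.96), Kif11 (0.95), Mki67 (0.95), Iqgap3, Ccnb2, Ccna2, Top2a, Aspm, Knstrn and Stmn1 (0.90). Kif11 is a spindle motor, Mki67 the proliferation antigen Ki-67, Ccnb2 and Ccna2 are cyclins, Top2a untangles DNA, and Aspm acts at spindle poles. Of 22 mitosis genes listed with earlier results known, 19 were among the 100 genes most like Hmmr of 12951 ranked. Their median r was 0.84, and 0.83 over the 21 libraries other than the Y-linked ones. The median over all ranked genes was 0.02. These points share stage, zone and library, which a correlation does not separate, and over deviations from the 9 group means the median r of the mitosis genes was 0.79.

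The mitosis genes had differences of the same direction as Hmmr in the comparisons in which Hmmr passed. At dpc8, 22 of 22 were higher in zone 1 than in zone 3 (median difference 2.02, against 0.08 over all tested genes), of which 1 passed where 1.61% of all tested genes did, Knstrn (2.73, limma adjusted p = 0.0298). In the same comparison Mki67 had a mean of 15.8 FPKM in zone 1 and 3.16 FPKM in zone 3 (difference 2.27, limma adjusted p = 0.0702), and Top2a had 17.5 and 2.86 FPKM (difference 2.32, limma adjusted p = 0.216). From dpc8 to dpc16 in zone 1, 22 of 22 had lower means (median -2.57, against -0.05 over all tested genes) and 11 passed where 2.01% of all tested genes did, among them Mki67, which fell by 3.20 (limma adjusted p = 0.00746), and Top2a, which fell by 3.19 (limma adjusted p = 0.0454). These counts without the Y-linked libraries were 21 of 22 higher with 10 passing, and 22 of 22 lower with 17 passing, in fits that called 2.78% and 4.36% of all genes. In dpc8 zone 1 against NP zone 1, 22 of 22 were higher (median 1.61) and 0 passed with limma, with 12 at an unadjusted p under 0.05 where 1.96% of tested genes were higher at that level. In the fit without the Y-linked libraries 1 passed, where 0.057% of all genes did. In zone 2, 21 of 22 were higher at dpc8 than in NP (median 1.14, and 0.89 without the Y-linked libraries) and 0 passed with limma, with 8 at an unadjusted p under 0.05, all 8 higher, where 1.98% of tested genes were higher at that level. In zone 3, 5 of 22 were higher (median -0.15), and 18 of 22 without the Y-linked libraries (median 0.29).

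Nudcd2, which starts within the Hmmr window on the opposite strand and was chosen after its values were seen, did not show this pattern. Its mean was 25.2 FPKM in zone 1 and 23.3 FPKM in zone 3 at dpc8 (difference 0.11, interval -0.54 to 0.76) and 20.6 FPKM in zone 1 at dpc16 (difference from dpc8 -0.28, interval -0.93 to 0.37).

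**Figure D2:**
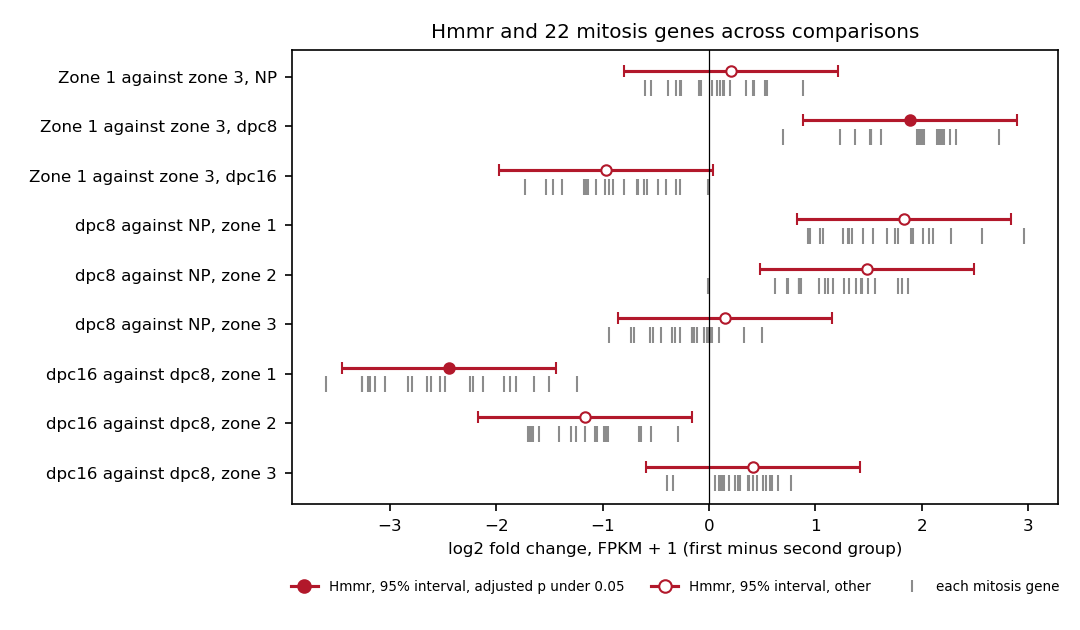
Log2 fold change of FPKM + 1 (first minus second group named at left) for Hmmr, as circles with 95% intervals that are filled where the limma adjusted p is under 0.05, and for each of 22 mitosis genes as grey ticks. Hmmr and the ticks lie to the right for zone 1 against zone 3 at dpc8 (1.89 for Hmmr) and to the left for dpc16 against dpc8 in zone 1 (-2.45).

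Cd44 (chr2:102811141-102901665, minus strand), the main hyaluronan receptor of many cell types, ranged from 2.17 to 195 FPKM, the widest range of the members, and its high values were all in the Y-linked libraries. In FPKM it was 113, 6.49 and 4.44 in NP zone 1, 11.0, 4.84 and 20.8 in NP zone 2, and 6.80, 36.6 and 2.17 in NP zone 3. At dpc8 it was 138, 10.2 and 3.48 FPKM in zone 1, 18.5, 57.9 and 5.36 FPKM in zone 2, and 3.25, 11.8 and 3.14 FPKM in zone 3. At dpc16 it was 7.06, 4.93 and 12 FPKM in zone 1, 8.17, 6.43 and 195 FPKM in zone 2, and 2.80, 2.45 and 125 FPKM in zone 3. The 6 Y-linked libraries lay at 36.6 to 195 FPKM, above all 21 others at 2.17 to 20.8 FPKM.

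No difference in Cd44 passed in the 19 comparisons. The difference of zone 1 from zone 3 at dpc8 was 1.65 (interval -1.48 to 4.78, limma adjusted p = 0.677) and became 0.22 (limma adjusted p = 0.954) without the Y-linked libraries, and that of dpc16 from NP in zone 2 was 1.04 (interval -2.09 to 4.17, limma adjusted p = 0.783) and became -0.48 (limma adjusted p = 0.734). With single libraries left out they ranged from 0.22 to 2.70 and from -0.48 to 1.88, and with array weights they were 0.45 and 0.07. Over the 27 libraries, which differ in depth, stage and zone, log2(FPKM + 1) of Cd44 was correlated with that of Has2 (r = 0.91) and with the connective tissue and smooth muscle list (r = 0.87), and over the 21 other libraries r was 0.69 and 0.46. The 0.69 rests on few values, since Has2 was at 0 in 13 of these 21 libraries and at most 1.12 FPKM in them. With the mesothelium list the r of Cd44 was 0.83 over 27 libraries and 0.09 over the 21. It was 0.95 and 0.73 with the Y-linked genes, -0.28 and 0.66 with Kupffer cells, and 0.57 and 0.50 with biliary epithelium. The genes most like Cd44 were Hmga2, Tll1, Flnc, Bcat1 and Ptk7 (r between 0.96 and 0.97, and between 0.71 and 0.83 over the 21). The r between Hmmr and Cd44 was 0.52 over 27 libraries and -0.02 over the 21.

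**Figure D3:**
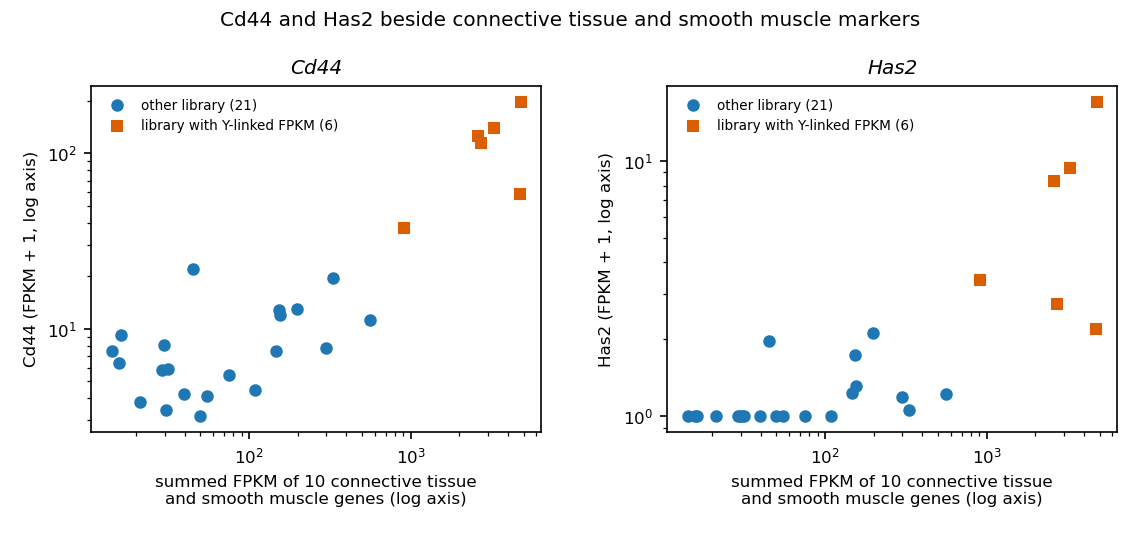
Cd44 (left) and Has2 (right) level plus 1 (FPKM, log axis) against the summed FPKM of 10 connective tissue and smooth muscle genes (log axis), 1 point per library. Squares are the 6 Y-linked libraries, with sums of 905 to 4801, and lie above all 21 circles for both genes.

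Lyve1 (chr7:110850607-110863239, minus strand), a receptor of lymphatic and sinusoidal endothelium, ranged from 1.16 to 14.5 FPKM with a median of 3.82 FPKM. The groups with the highest means were dpc16 zone 2 (8.02 ± 6.56 FPKM, SD, n = 3), NP zone 2 (6.15 ± 3.76) and dpc16 zone 1 (6.15 ± 2.39), and the lowest was dpc8 zone 1 (2.60 ± 1.16). Single libraries set much of this spread, since dpc16 zone 2 held both the highest value (14.5 FPKM) and one of the lowest (1.34 FPKM, its Y-linked library). No difference in Lyve1 passed with equal weights for the libraries. That of dpc16 from NP over the mean of zones was 0.29 (interval -0.50 to 1.09, limma adjusted p = 0.798), 0.74 (limma adjusted p = 0.228) without the Y-linked libraries, and 0.99 with array weights, where it passed (limma adjusted p = 0.0420) in a fit that called 15.5% of all genes. With single libraries left out it was between 0.13 (without replicate 2 of dpc16 zone 2) and 0.52 (without replicate 3 of dpc16 zone 2), and 0.14 without replicate 2 of NP zone 2. Among its nearest genes were Fbxo31 (r = 0.82), Cpt1a (0.82) and Klf9 (0.79).

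Stab2 (chr10:86841198-87008025, minus strand), the scavenger receptor by which sinusoidal endothelium takes up circulating hyaluronan, was listed in every library at 10.4 to 38.4 FPKM. At dpc8 it was 12.9, 12.3 and 11.0 FPKM in zone 1, 24.1, 11.0 and 11.9 FPKM in zone 2, and 35.0, 22.4 and 16.5 FPKM in zone 3. All 3 zone 3 libraries were thus above all 3 zone 1 libraries, a gap in that direction that 10.5% of tested genes showed. The difference of zone 1 from zone 3 was -0.91 at dpc8 (interval -1.71 to -0.11, limma adjusted p = 0.322, and -0.96 without the Y-linked libraries), -0.67 in NP liver (interval -1.46 to 0.13) and -0.17 at dpc16 (interval -0.97 to 0.62). Over the mean of stages it was -0.58 (interval -1.04 to -0.12, limma adjusted p = 0.158), with means of 16.8 ± 7.02 FPKM in zone 1 and 24.9 ± 6.87 FPKM in zone 3 (SD, n = 9), and 5.59% of tested genes passed in that comparison, no member among them. It was -0.59 (limma adjusted p = 0.160) without the Y-linked libraries. From NP to dpc8 in zone 2 Stab2 differed by -0.97 (interval -1.76 to -0.17, limma adjusted p = 0.965). The genes most like Stab2 were Kdr (r = 0.82), Bmp2, Stab1, Oit3 and Pde4dip. Kdr and Oit3 are on the list of 12 sinusoidal endothelium markers, and the summed FPKM of that list had an r of 0.73 with Stab2 over 27 libraries and 0.71 over 21. The sum was 82.8 to 206 FPKM in the Y-linked libraries and 142 to 279 FPKM in the others, with all 12 markers detected in every library and Clec4g, Ehd3 and Fcgr2b highest.

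Of the hyaluronan synthases, Has2 (chr15:56665627-56694539, minus strand) was the only one that passed the filter, and it was listed at 0 in 13 of 27 libraries. In FPKM it was 1.74, 0.237 and 0 in NP zone 1, 0.310, 0 and 0.976 in NP zone 2, and 0.194, 2.41 and 0 in NP zone 3. At dpc8 it was 8.39, 0.222 and 0 FPKM in zone 1, 0.0560, 1.2 and 0 FPKM in zone 2, and 0, 0.730 and 0 FPKM in zone 3. At dpc16 it was 0, 0 and 1.12 FPKM in zone 1, 0, 0 and 16 FPKM in zone 2, and 0, 0 and 7.35 FPKM in zone 3. The 6 Y-linked libraries, at 1.2 to 16 FPKM, lay above all others, at 0 to 1.12 FPKM. No difference in Has2 passed in the 19 comparisons, and without the Y-linked libraries it no longer passed the filter. Its r was 0.87 with the mesothelium list and 0.80 with the connective tissue and smooth muscle list over 27 libraries, and 0.38 and 0.44 over the 21. With the Y-linked genes its r was 0.90 over 27 libraries and 0.78 over the 21. Its nearest genes were Igf2bp1 (r = 0.97), Htr2a, Dusp9, Irx5 and Flrt2 (r = 0.95). Over the 21 other libraries Irx5 fell to an r of 0.06 and the other 4 to between 0.67 and 0.76.

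Has1 (chr17:17843323-17855205, minus strand) was listed at 0 in 25 libraries and at 0.232 and 0.180 FPKM in the Y-linked libraries of NP zone 1 and dpc8 zone 1, on about 6.0 and 8.0 reads. Has3 (chr8:106870242-106884566, plus strand) was listed at 0 in 16 libraries and reached 0.282 FPKM in replicate 2 of dpc8 zone 1. It overlaps Chtf8 on the opposite strand. At these depths 1 read on a transcript of 1 kilobase is worth 0.03 to 0.133 FPKM, so neither gene could be compared between groups, and a low level was not told apart from none.

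The hyaluronidases were listed in every library. Hyal2 (chr9:107567945-107572779, plus strand), which is anchored at the cell surface and makes the first cuts, was at 21.9 to 71.1 FPKM (median 41.5) and was the member with the highest median. Hyal1 (chr9:107576927-107581710, plus strand), the lysosomal enzyme, was at 5.65 to 30.4 FPKM (median 17.3). Hyal1 overlaps Naa80 and Hyal3 on the same strand and both have annotated antisense transcripts, so their FPKM depends on how the authors' counting assigned shared reads.

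Hyal1 in zone 2 was 23.3, 21.7 and 30.4 FPKM in NP liver, 28.4, 9.96 and 17.5 FPKM at dpc8, and 9.46, 15.4 and 5.65 FPKM at dpc16. All 3 dpc16 libraries were below all 3 NP libraries, a gap in that direction that 9.59% of tested genes showed. The difference was -1.31 (interval -2.11 to -0.51) and missed the threshold (limma adjusted p = 0.0740), where 2.66% of tested genes passed. It passed when replicate 2 of dpc16 zone 2 was left out (-1.63, limma adjusted p = 0.0441) and was -0.98 (limma adjusted p = 0.131) without the Y-linked libraries and -0.79 (limma adjusted p = 0.149) with array weights. Over the mean of zones Hyal1 differed from NP by -0.67 at dpc16 (interval -1.21 to -0.13, limma adjusted p = 0.146), with means of 20.7 ± 5.36 FPKM in NP and 13.5 ± 6.15 FPKM at dpc16 (SD, n = 9), and no member was among the 6.8% of genes that passed. With array weights this was -0.43 (limma adjusted p = 0.226). The genes most like Hyal1 were Il17rb (r = 0.86), Itpr1, Fam214a, Met and Ptprj (r = 0.81).

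Hyal2 in zone 3 was 71.1, 61.9 and 47.2 FPKM at dpc8 and 43.1, 41.5 and 25.3 FPKM at dpc16, with no overlap, as in 12.2% of tested genes in that direction. The difference was -0.72 (interval -1.31 to -0.13, limma adjusted p = 0.259) and did not pass. Without replicate 3 of dpc16 zone 3, its Y-linked library, it was -0.48. No other difference in Hyal2 had an interval that left out 0. Its nearest genes were less like it than those of the other members, Hdac6 at r = 0.74, then Mapt (0.65), E2f8, Slc52a2 and Ubr4 (each 0.60).

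**Figure D4:**
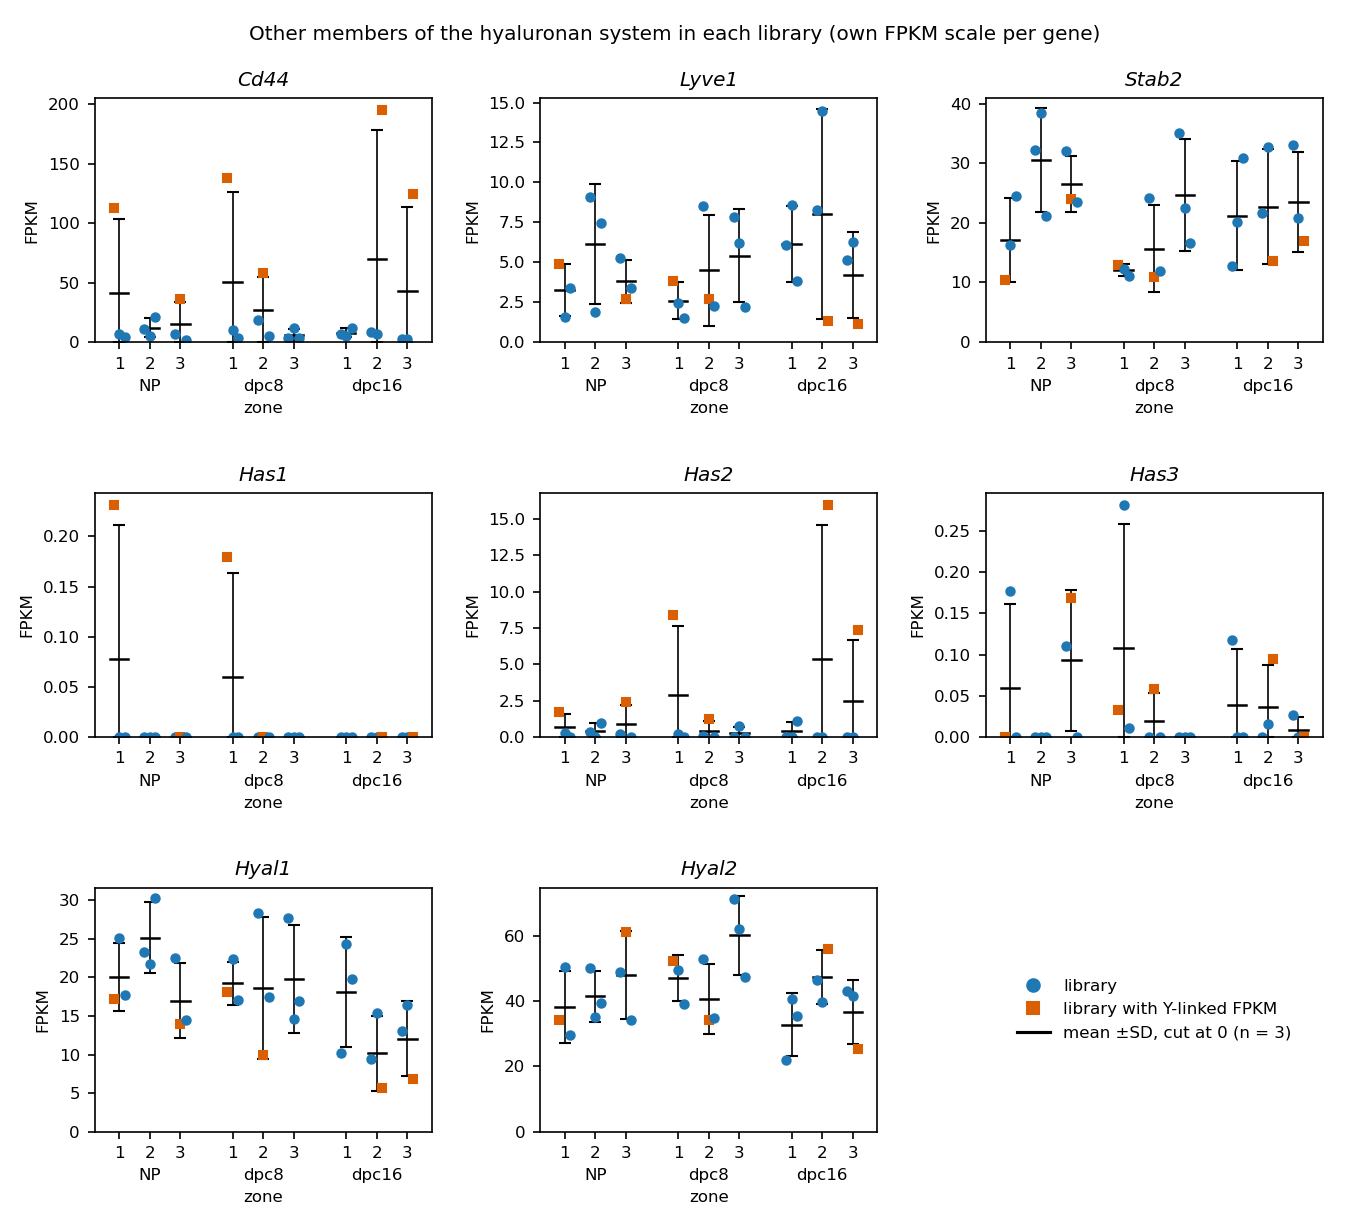
Level (FPKM, linear axes from 0, a separate scale for each gene) of Cd44, Lyve1, Stab2, Has1, Has2, Has3, Hyal1 and Hyal2 in each library by stage and zone, with lines for the mean and bars of 1 SD (n = 3) cut at 0. Squares are the 6 Y-linked libraries, which hold the highest values of Cd44 (36.6 to 195) and Has2 (1.2 to 16) but not of Hyal1, Hyal2, Lyve1 or Stab2.

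Around these members, 37 other genes of hyaluronan metabolism were in the table, and 25 of them passed the filter. They supply the sugar precursors (7 genes, 7 tested), belong to the inter-alpha-trypsin inhibitor family or act with it (6, 6 tested), degrade it (10, 5 tested) or bind it (14, 7 tested). Among the highest of each group by mean FPKM were Ugp2, Ugdh and Gnpnat1, then Itih4, Ambp and Itih2, then Hexa and Gusb, and then Habp2, Stab1 and Hapln4. Hyal4, Hyal5, Spam1 and Hapln2 were listed at 0 in every library.

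None of the 25 passed between dpc8 and NP in any zone with limma, where 0.0309%, 0.00772% and 0.0154% of tested genes did in zones 1, 2 and 3. None had an unadjusted limma p under 0.05 there, where 406, 656 and 355 of the 12952 tested genes did. With so few genes passing, 0 of 25 says little about this group. At dpc16, against NP over the mean of zones, 4 were higher and 2 lower, where 3.35% of tested genes were higher and 3.45% lower, and the median difference of the 25 was 0.05 against -0.01 over all tested genes. Itih4, a liver-secreted plasma protein of the inter-alpha-trypsin inhibitor heavy chain family, rose from 1008 ± 215 FPKM in NP to 6602 ± 2924 FPKM at dpc16 (SD, n = 9), by 2.57 (interval 2.00 to 3.14, limma adjusted p = 1.51e-06). Hapln4, a hyaluronan and proteoglycan link protein, rose from 3.08 ± 1.91 to 16.4 ± 7.80 FPKM, by 2.06 (interval 1.44 to 2.68). Gusb and Hexa, lysosomal enzymes that remove single sugars from hyaluronan fragments, rose by 1.11 (interval 0.85 to 1.36) and 0.94 (interval 0.64 to 1.23). Ugdh, which makes UDP-glucuronic acid, fell by 1.24 (interval 0.81 to 1.67 lower), from 105 ± 22.1 to 46.2 ± 17.8 FPKM, and Ugp2, which makes its precursor UDP-glucose, fell by 0.81 (interval 0.34 to 1.28 lower), a call that held without 11 of the 18 libraries left out in turn. The limma adjusted p of these 5 genes was between 2.60e-06 and 0.0305. Without the Y-linked libraries 22 of the genes passed the filter, with 8 higher and 2 lower, in a fit that called 11.0% of all genes. The 6 named genes kept their calls there, at 2.79 (Itih4), 2.42 (Hapln4), 1.17 (Gusb), 0.95 (Hexa), -1.23 (Ugdh) and -0.77 (Ugp2). The summed FPKM of 4 hepatocyte markers, led by Alb, moved with stage too, with a median of 53385 in NP and 166761 at dpc16, and the total FPKM of a library with it, from a median of 616449 to 866176. In the Y-linked dpc16 libraries the totals were 523854 and 573644, against 834568 to 988500 in the other 7. The part of these shifts in the pathway differences was not tested.

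Against dpc8, the dpc16 values over the mean of zones showed 6 of the 25 higher and 1 lower, where 3.15% of tested genes were higher and 3.03% lower. The comparison shares its dpc16 libraries with the previous one. Ugdh fell by 1.55 (limma adjusted p = 3.92e-05), Itih3, of the same family as Itih4, rose by 1.28 (limma adjusted p = 0.0199), and Pgm3, which acts in the synthesis of UDP-N-acetylglucosamine, rose by 0.62 (limma adjusted p = 0.0481). Pgm3 was named after its values were seen, and its call held in 6 of 18 fits that left out 1 library and in 3 of 6 other settings. It was lost with a pseudocount of 0.1 (limma adjusted p = 0.0540), with upper quartile scaling (0.0556) and without the Y-linked libraries (0.0590), and the difference was 0.58 to 0.69 over the 6 settings. Itih4 (2.38), Hapln4 (1.86), Hexa (0.91) and Gusb (0.91) rose as well. Of the members themselves, 0 of 7 passed against NP and 1 of 7, Hmmr, against dpc8.

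Between the zones, 2 of the 25 passed over the mean of stages, both higher in zone 1 than in zone 3, where 2.7% of tested genes were higher. Gusb was higher by 0.97 (SE 0.10, limma adjusted p = 4.89e-07), with a mean of 26.5 ± 13.4 FPKM in zone 1 and 12.4 ± 4.80 FPKM in zone 3 (SD, n = 9), and it also passed at each stage taken alone, where 1.34% (NP), 1.61% (dpc8) and 1.55% (dpc16) of tested genes passed. Hapln4 was higher by 0.97 (interval 0.42 to 1.51, limma adjusted p = 0.0298), and this call was lost without 10 of the 18 libraries compared, left out in turn. With the Y-linked libraries left out, 5 of 22 were higher and 2 lower, in a fit that called 8.47% of all genes, and the calls of Gusb and Hapln4 held.

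**Figure D5:**
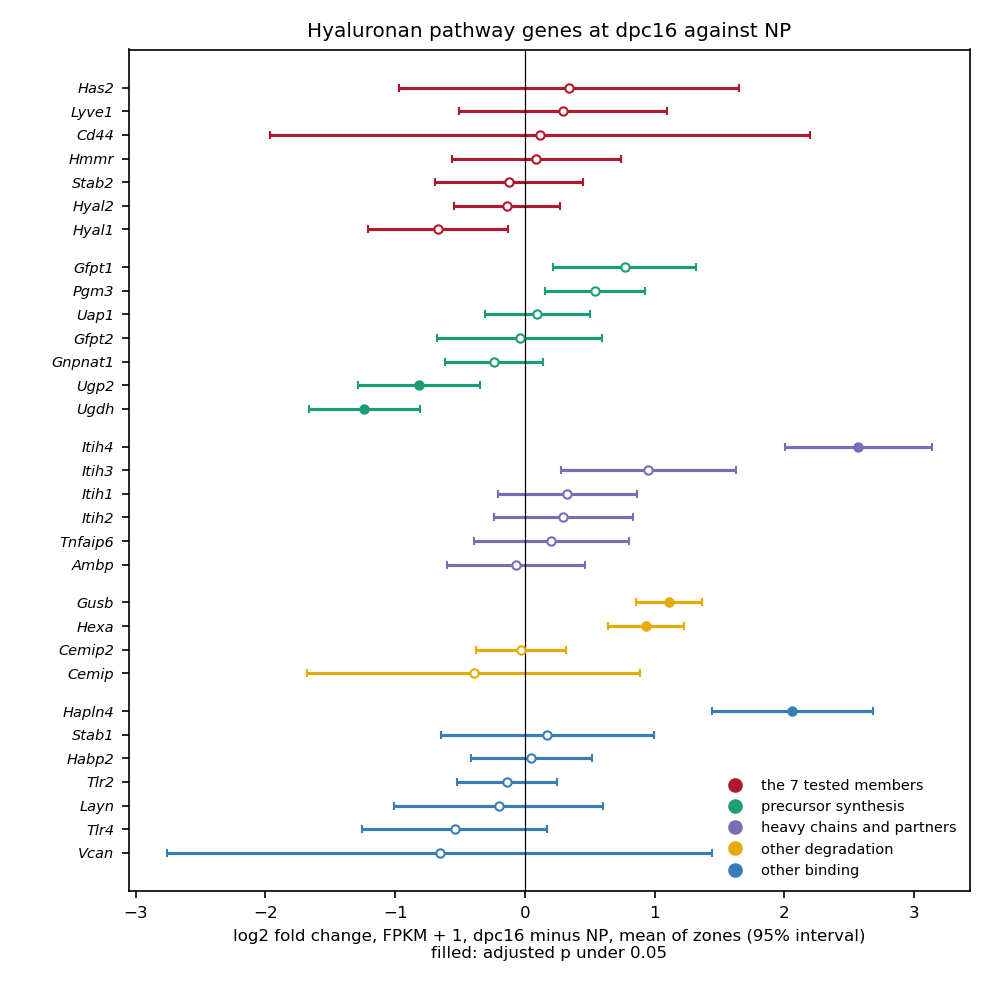
Log2 fold change of FPKM + 1 from NP to dpc16 over the mean of zones, with 95% intervals, for the 7 tested members and 24 of the 25 other genes of hyaluronan metabolism, coloured by group and filled where the limma adjusted p is under 0.05. Itih4 (2.57), Hapln4 (2.06), Gusb (1.11) and Hexa (0.94) lie to the right and Ugdh (-1.24) and Ugp2 (-0.81) to the left, and no member is filled.

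Among the members, the r of Hmmr with Cd44, Has2, Hyal1, Hyal2, Lyve1 and Stab2 lay between -0.48 (Lyve1) and 0.52 (Cd44) over 27 libraries, and between -0.44 (Lyve1) and 0.75 (Has2) over deviations from the group means. Over the 21 libraries other than the Y-linked ones it lay between -0.39 (Lyve1) and 0.28 (Hyal2), against a median of 0.83 with the mitosis genes. The pairs with the highest r over these libraries were Cd44 with Has2 (r = 0.69) and Lyve1 with Stab2 (r = 0.46), the latter being the receptors found on sinusoidal endothelium. Has2 was at 0 in 13 of these 21 libraries and did not pass the filter over them, so the first r rests on few, low values.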

How the data were processed

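The 27 libraries were made from laser-microdissected liver zones with ribosomal RNA depletion. Per the study's methods and processing notes, the authors trimmed reads with cutadapt, aligned them to mm10 with HISAT2 2.1.0 and computed expression of protein-coding genes with the Cuffdiff program (Cufflinks 2.2.1). Expression is deposited as FPKM and was used as the authors computed it. Whether the counting used strand is not given in the sources used here. The table holds no counts. Depth was estimated from the steps of low FPKM in genes with 1 transcript, of which 91.52% to 97.71% were whole reads within 0.1 read in each library, so it is approximate, and no count test was run.

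Values were tested as log2(FPKM + 1), a scale that understates changes of low genes, over the 12952 genes that reached 1 FPKM in 3 or more libraries, with limma 3.58.1 in R 4.3.3. A mean was fitted to each of 9 groups, with trend and robust settings, two-sided tests, and Benjamini-Hochberg adjustment over all genes in each of 19 comparisons (threshold 0.05). Comparisons over the mean of zones treated libraries of 1 stage with the same replicate number as correlated (consensus correlation 0.193). The labels do not tie numbers to mice. Same-numbered libraries of different zones deviated together (r over 0.1) in 9 of 9 pairs at dpc16, 5 of 9 at dpc8 and 4 of 9 in NP. Zones 2 and 3 at dpc16 had the highest r of that stage (0.63, 0.67 and 0.86), and replicate 3 of both is a Y-linked library. The part of those libraries in these r was not tested.

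The members, gene lists and tests were chosen with earlier results of these data known. Named genes were the members, the pathway genes past the threshold (up to 5 in a comparison by size) or among the highest 3 of a list, and the 10 genes most like Hmmr or 5 most like another member, of which a few are not reported here. Genes were placed with GENCODE vM21, and promoter sequences came from RefSeq. Alternatives were a pseudocount of 0.1, no filter, upper quartile scaling, array weights, the replicate number as a block, only the groups compared, and leaving out libraries. Scripts were tested on simulated data.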

Additional observations from a re-analysis of the deposited data

How the results depend on the processing

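Results are the number of the 7 tested members past the threshold in each of 19 comparisons, and 40 named differences. For zone 1 against zone 3 at dpc8 the count of 1 (Hmmr) was 0 with a pseudocount of 0.1, with no filter on low values, in a fit blocked on the replicate number, and with only the groups compared, and 0 to 1 with single libraries left out. For Hmmr the replicate block gave an adjusted p of 0.0693, and 0.0057 when nested in stage, and blocking changed the call of no other member. For dpc16 against dpc8 the count of 1 (Hmmr) was 0 to 1 with single libraries left out in zone 1 and over the mean of zones, and 0 over the mean of zones with a pseudocount of 0.1. Array weights gave 1 in place of 0 for zone 1 against zone 3 over the mean of stages (Stab2), dpc16 against dpc8 in zone 2 (Hmmr), and dpc16 against NP over the mean of zones (Lyve1, 0.99), in fits that called 11.2%, 7.67% and 15.5% of all genes. For dpc16 against NP in zone 2 the count was 0 to 1 with single libraries left out (Hyal1). The cause was not tested in these cases.

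Differences that turned their sign were Hmmr from NP to dpc8 in zone 3 (-0.26 to 0.50 with single libraries left out), Hmmr from NP to dpc16 in zone 2 (-0.23 with array weights, -0.18 without the Y-linked libraries, -0.18 to 0.64 with single libraries left out), Hmmr from dpc8 to dpc16 in zone 3 (-0.13 without the Y-linked libraries, -0.13 to 0.82 with single libraries left out) and Cd44 from NP to dpc16 in zone 2 (-0.48 without the Y-linked libraries, -0.48 to 1.88 with single libraries left out). None of these passed the threshold in any setting run. Upper quartile scaling moved the median of all genes by under 0.1 and the call of no member.

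Array weights called 2005 genes for dpc16 against NP over the mean of zones and 2539 for dpc16 against dpc8, against 881 and 801, and the block left out gave 1529 and 1432. Leaving out the Y-linked libraries gave 1350 and 1524. For zone 1 against zone 3 over the mean of stages array weights called 1450 genes and leaving out the Y-linked libraries 1039, against 724. For zone 1 against zone 3 at dpc8 the counts were 855 (array weights), 459 (block nested in stage) and 341 (without the Y-linked libraries) against 208. The count was lower with only the groups compared (174) and with single libraries left out (115 to 183). For dpc16 against dpc8, leaving out single libraries gave 89 to 207 in zone 1 against 260, and 64 to 273 in zone 2 against 195. Only the groups compared gave 170 and 0 there. Low levels limit Has1, Has3, Has2 outside the Y-linked libraries and Hmmr in dpc16 zone 1. Single values rest on at most about 8.0 reads for Has1, about 53 for Has2 outside the Y-linked libraries and about 21 for Hmmr in dpc16 zone 1.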
